A study of Danio rerio with 2 samples.

Results

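The genes described here encode the lipid-carrying proteins that liver and yolk make in zebrafish, together with the transfer protein that loads one of them with lipid. They were the HDL proteins *apoa1a* (ENSDARG00000012076), *apoa1b* (ENSDARG00000101324) and *apoa2* (ENSDARG00000015866), the B apolipoproteins *apoba* (ENSDARG00000042780) and *apobb.1* (ENSDARG00000022767), the E apolipoproteins *apoea* (ENSDARG00000102004) and *apoeb* (ENSDARG00000040295), the C apolipoproteins *apoc1* (ENSDARG00000092170) and *apoc2* (ENSDARG00000092155), and *mttp* (ENSDARG00000008637). The genes were picked by name with no measured value in the rule, although earlier results of these data were known, and the choice took 10 of the 33396 listed genes. All 10 reached 1 FPKM (reads scaled by gene length and by library total) in at least 1 library and entered the comparison.

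The study sequenced total RNA from hearts of zebrafish embryos at 72 hpf, with 1 control library and 1 library labelled homozygous *smyd4* L544Efs*1. The sample records gave the strain of both as Tu and the control genotype as wt. The methods named the Tg(cmcl2:GFP) line, a green fluorescent reporter of cardiomyocytes, for the controls, and maternal-zygotic mutants, which lack the wild-type product of both mother and embryo, for the other group. Per the paper, the mutant line had been crossed to the same reporter line. Unless stated otherwise, its mutants carried the reporter as well. Hearts of many embryos were pooled into each library and cardiac fluorescence guided the dissection, so each group was 1 measurement with no replicate and no p-value is given.

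Apolipoproteins are the protein part of the particles that carry fat and cholesterol through body fluids. Apolipoprotein B is the structural protein of the large triglyceride-rich particles, whose assembly in the endoplasmic reticulum needs the microsomal triglyceride transfer protein encoded by *mttp*. The A proteins build HDL, the E proteins are ligands of receptors of the LDL receptor family, and the C proteins act on lipases and on particle uptake. In the zebrafish embryo the yolk syncytial layer packs yolk lipid into such particles, and the liver and intestine take over this task as the yolk is used up.

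The depth derived from the values was 18840114 reads for the control library and 17960132 reads for the *smyd4*-labelled library, with 22912 and 24384 genes above 0. The targeted gene *smyd4* was at 2.42 FPKM in both libraries (111 and 106 reads, ratio 1.00, 95% counting interval 0.760 to 1.32). Its level therefore did not separate the labels, although the paper reports loss of the *smyd4* transcript in mutant embryos by qRT-PCR and in situ hybridization. The second library is named by its label alone, as the *smyd4*-labelled library. Cardiomyocyte markers were present in both, with a summed level of 7222 FPKM over 21 genes in the control library and 8579 FPKM in the *smyd4*-labelled library. Other tissues were present too, since 12 epidermal keratinocyte markers summed to 20114 and 26731 FPKM. A gene was counted as lower or higher when log2(FPKM + 1) of the *smyd4*-labelled library differed from that of the control by more than 1. The median of this difference over all 17800 tested genes was 0.49, so the libraries were offset from each other before any gene was considered.

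All 10 genes had a smaller value in the *smyd4*-labelled library than in the control, and 6 of them passed the threshold. The HDL genes *apoa1a*, *apoa1b* and *apoa2*, the B genes *apoba* and *apobb.1* and the C gene *apoc2* were lower by more than 1, the other 4 lay within 1, and none was higher. This was 6 of 10 genes, or 60%, where 11.6% of all tested genes were lower and 33.3% were higher. As the genes were chosen with earlier results known, this is a description. Among genes with a mean of at least 10 FPKM 14.0% were lower, and among those with a mean of at least 100 FPKM 28.5% were lower. The median difference of the 10 genes was -1.77, with single values from -3.85 to -0.07. Relative to the median of all genes, 9 of the 10 were lower by more than 1. After TMM scaling, which brings the median of all genes to 0.04, 19.3% of all tested genes were lower, 21.2% were higher, and again 9 of the 10 were lower. In bulk RNA of this kind, fewer cells that express a gene and less of its RNA per cell cannot be told apart.

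**Figure D1:**
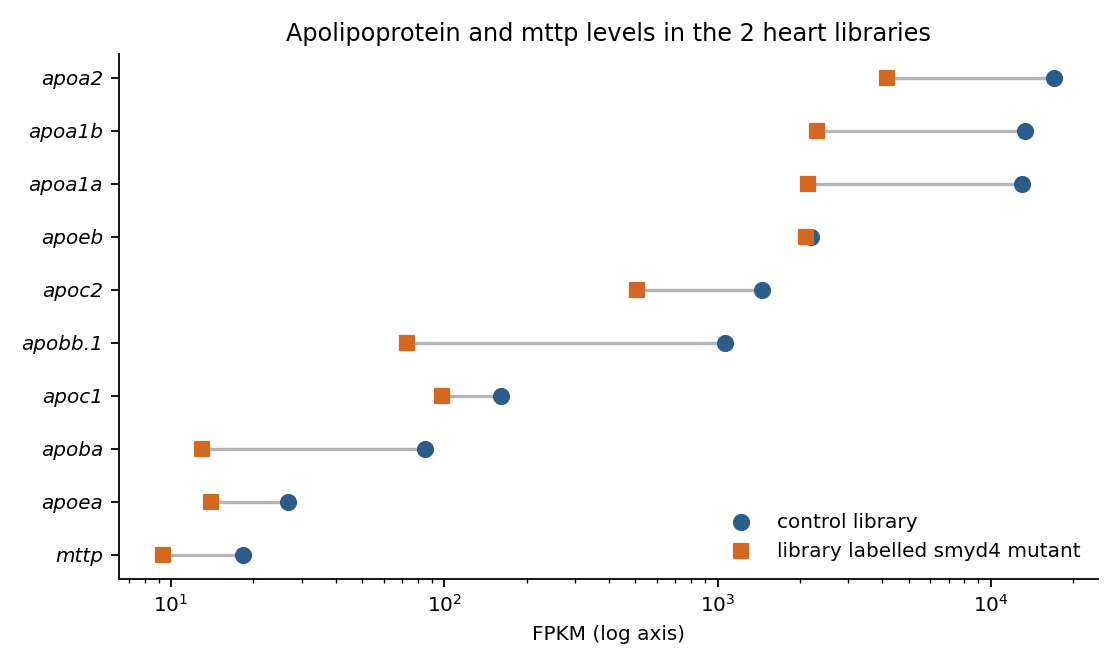
FPKM of the 10 genes (log axis) in the control library and in the *smyd4*-labelled library, 1 point per library. Every gene had the smaller value in the *smyd4*-labelled library, 6 of them past the threshold, from 1065 against 72.8 FPKM for *apobb.1* to 2202 against 2099 FPKM for *apoeb*.

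The amount of message involved was large. The 10 genes summed to 48345 FPKM in the control library and to 11441 FPKM in the *smyd4*-labelled library, a 4.23-fold difference. Their derived reads took 5.60% of the control library (95% Clopper-Pearson interval 5.58 to 5.61) and 1.11% of the *smyd4*-labelled library (1.104 to 1.114). The derived reads are the smallest whole reads that fit the values. Where true reads are a multiple of them, the shares are too low and their intervals do not hold. These intervals, like all others here, cover counting error only and say nothing about variation between pools of hearts. Among the 100 genes with the highest FPKM were 5 of the 10 genes in the control library and 4 in the *smyd4*-labelled library.

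The 3 HDL genes carried most of this message. The gene *apoa2*, which encodes the second main protein of HDL in mammals, was at 16989 FPKM in the control library and at 4177 FPKM in the *smyd4*-labelled library. It ranked 2 among all genes in the control and 11 in the *smyd4*-labelled library, and it was 4.07-fold lower (95% counting interval 4.03 to 4.11). The 2 copies of the main HDL protein stood close together. The gene *apoa1b* was at 13327 and 2318 FPKM, 5.75-fold lower (5.69 to 5.81), and moved from rank 5 to rank 23. The gene *apoa1a* was at 13024 and 2132 FPKM, 6.11-fold lower (6.04 to 6.17), and moved from rank 7 to rank 26. On the log2(FPKM + 1) scale the differences were -2.02 for *apoa2*, -2.52 for *apoa1b* and -2.61 for *apoa1a*. Together the 3 genes gave 43340 FPKM in the control and 8628 FPKM in the *smyd4*-labelled library, which was 89.6% and 75.4% of the FPKM of all 10 genes.

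The 2 *apoa1* copies kept nearly the same proportion to each other, with an *apoa1b* to *apoa1a* ratio of 1.02 in the control library and 1.09 in the *smyd4*-labelled library. Such a ratio of FPKM values within a library does not depend on the scaling between libraries. The ratio of *apoa2* to *apoa1a* moved more, from 1.304 to 1.96. Whether these shifts exceed the variation between pools of hearts was not measured.

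The B apolipoprotein genes showed the widest gap. The gene *apobb.1* was at 1065 FPKM (230538 reads) in the control library and at 72.8 FPKM (15025 reads) in the *smyd4*-labelled library. It was 14.6-fold lower (14.4 to 14.9), a difference of -3.85 on the log2(FPKM + 1) scale, and only 0.129% of all tested genes had a lower value. Its rank went from 109 to 1643. The paralog *apoba* was at 84.8 FPKM (10768 reads) and 13.0 FPKM (1572 reads), 6.53-fold lower (6.19 to 6.89), with a difference of -2.62. In both libraries *apobb.1* was the more abundant copy, by a factor of 12.6 in the control and 5.61 in the *smyd4*-labelled library. The counting intervals of their folds did not overlap.

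The transfer protein gene did not follow the B proteins to the same extent. The gene *mttp* was at 18.3 FPKM (780 reads) in the control library and at 9.35 FPKM (379 reads) in the *smyd4*-labelled library, the lowest level of the 10 genes in both. It was 1.96-fold lower (1.73 to 2.22), and its difference of -0.90 lay within the threshold. Of all tested genes, 13.2% had a lower difference than *mttp*. Beside it, *apobb.1* went from 58.1 times the level of *mttp* to 7.79 times.

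The E apolipoproteins were the group in which the smallest difference was found. The gene *apoeb* was at 2202 FPKM (43021 reads) in the control library and at 2099 FPKM (39087 reads) in the *smyd4*-labelled library. This was 1.05-fold lower (1.03 to 1.06), with a difference of -0.07, and its rank went from 47 to 28. The paralog *apoea* was at 26.7 FPKM (464 reads) and 14.0 FPKM (232 reads), 1.91-fold lower (1.63 to 2.24), with a difference of -0.88. The *apoeb* copy exceeded *apoea* by a factor of 82.5 in the control and 150.0 in the *smyd4*-labelled library. The near-level value of *apoeb* held for FPKM as deposited, whereas TMM scaling gave -0.59 for this gene, still inside the threshold. Zebrafish *apoeb* is also made by macrophages and microglia. Of 17 tested macrophage and microglia markers 1 was higher and 4 were lower (1 and 6 after TMM scaling), with a median of -0.38. Over all tested genes 33.3% were higher and 11.6% were lower (21.2% and 19.3% after TMM scaling), with a median of 0.49. The summed level over 24 marker genes was 268.4 FPKM in the control and 179.7 FPKM in the *smyd4*-labelled library. The part of these cells in the level of *apoeb* was not tested.

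With *apoeb* nearly level and the HDL genes lower, the make-up of the apolipoprotein message differed between the libraries. The share of *apoeb* in the summed FPKM of the 10 genes was 4.55% in the control and 18.3% in the *smyd4*-labelled library. The gene *apoa1a* exceeded *apoeb* 5.91-fold in the control library, and in the *smyd4*-labelled library the ratio was 1.02. The ratio of *apoa1b* to *apoeb* went from 6.05 to 1.104, and that of *apobb.1* to *apoeb* from 0.483 to 0.0347. Without *apoeb* the other 9 genes summed to 46143 and 9342 FPKM. In order of level, *apoa2*, *apoa1b*, *apoa1a*, *apoeb* and *apoc2* led in this order in both libraries. Below them *apobb.1* stood above *apoc1* in the control and below it in the *smyd4*-labelled library, and *apoba* and *apoea* changed places in the same way. Which neighbours in this order differ beyond the spread between pools could not be judged with 1 library each.

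Of the C apolipoproteins, 1 passed the threshold and 1 did not. The gene *apoc2*, the cofactor of lipoprotein lipase, was at 1448 FPKM (9082 reads) in the control library and at 507.6 FPKM (3036 reads) in the *smyd4*-labelled library. It was 2.85-fold lower (2.74 to 2.97), a difference of -1.51. The gene *apoc1*, known in mammals for slowing particle uptake, was at 160.8 FPKM (2363 reads) and 98.1 FPKM (1374 reads), 1.64-fold lower (1.53 to 1.75), and its difference of -0.71 did not pass the threshold. The ratio of *apoc2* to *apoc1* went from 9.003 to 5.18.

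**Figure D2:**
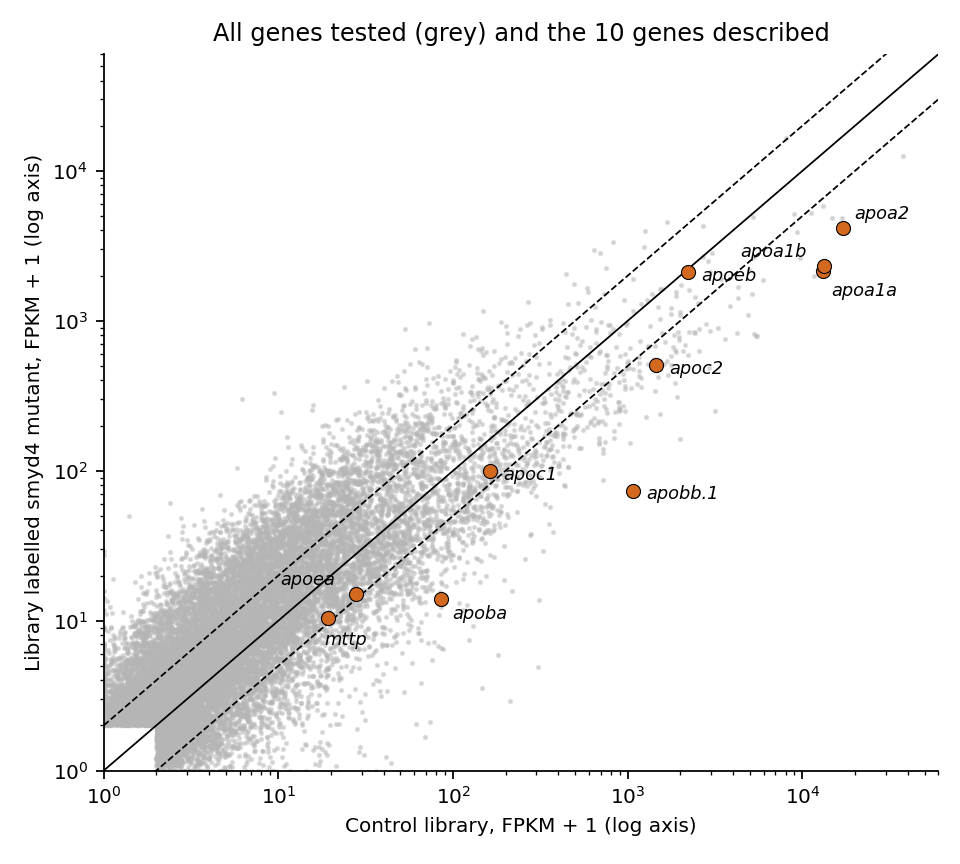
FPKM + 1 in the *smyd4*-labelled library against FPKM + 1 in the control library (log axes) for all 17800 tested genes, with the 10 apolipoprotein and transfer genes marked. The solid line marks equal values and the dashed lines the threshold of 1 on the log2 scale. The 10 genes lie below the solid line and 6 of them lie under the lower dashed line, while the median difference of all genes is 0.49.

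By size of fold the genes fell into an order, in which *apobb.1* stood alone at 14.6. The genes *apoba*, *apoa1a* and *apoa1b* followed with folds of 6.53, 6.11 and 5.75, then *apoa2* with 4.07 and *apoc2* with 2.85. The counting intervals of *mttp*, *apoea* and *apoc1* overlapped one another. Overlap alone does not settle the order of these 3 within these libraries, which was not tested. The gene *apoeb* closed the order at 1.05. On the scale of all tested genes, 0.803% had a lower difference than *apoba*, 2.18% than *apoa2*, 5.28% than *apoc2*, 17.1% than *apoc1* and 33.2% than *apoeb*.

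**Figure D3:**
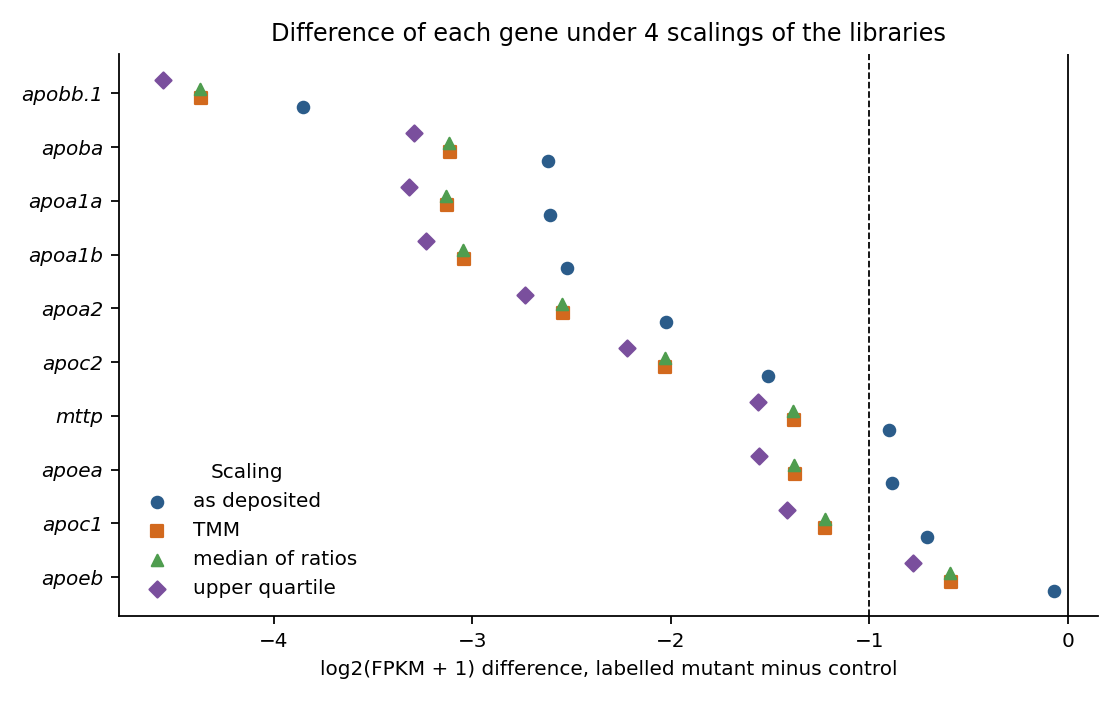
Difference of log2(FPKM + 1) of each of the 10 genes with the values as deposited and after each of 3 scalings (upper-quartile, median-of-ratios and TMM), with a dashed line at the threshold. Every gene stays below 0 under all 4, and *apoea*, *apoc1* and *mttp* cross the threshold once a scaling is applied (TMM -1.37, -1.22 and -1.38). Each scaling lowers the *smyd4*-labelled library against the control, so no gene below 0 could change sign.

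A set of 4 of the 10 genes shares a place in the genome. In the RefSeq annotation of the GRCz12tu assembly, used here only for the order of genes, *apoeb*, *apoc1*, *apoa2* and *apoc2* lie in 1 tandem array of 11 annotated genes, 8 of them apolipoproteins. In this order the array reads *apoa4b.1*, *apoa4b.3*, *apoa4b.2*, *apoeb*, *apoc1*, *apoc4*, *apoa2* and *apoc2*. The genes of the array differed among themselves. The genes at one end, *apoa2* and *apoc2*, were lower, and *apoeb* and *apoc1* in the middle lay within 1. On the other side of *apoeb*, *apoa4b.2*, a relative of the intestinal apolipoprotein A-IV of mammals, was higher at 127.8 and 365.7 FPKM (difference 1.51), although TMM scaling took it just inside the threshold at 0.99. The gene at that end of the array, *apoa4b.1*, was at 656.6 and 878.7 FPKM, a difference of 0.42 that changed sign to -0.10 after TMM scaling. The gene *apoa4b.3* was at 0.332 and 6.67 FPKM (6 and 115 reads), and *apoc4* was at 0.619 and 0.0928 FPKM on 7 reads and 1 read. In sum the array gave 21585 FPKM in the control and 8133 FPKM in the *smyd4*-labelled library, with 2 apolipoprotein genes lower, 2 higher and 4 within 1. The 4 include *apoc4*, which was below 1 FPKM in both libraries and so was not tested.

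**Figure D4:**
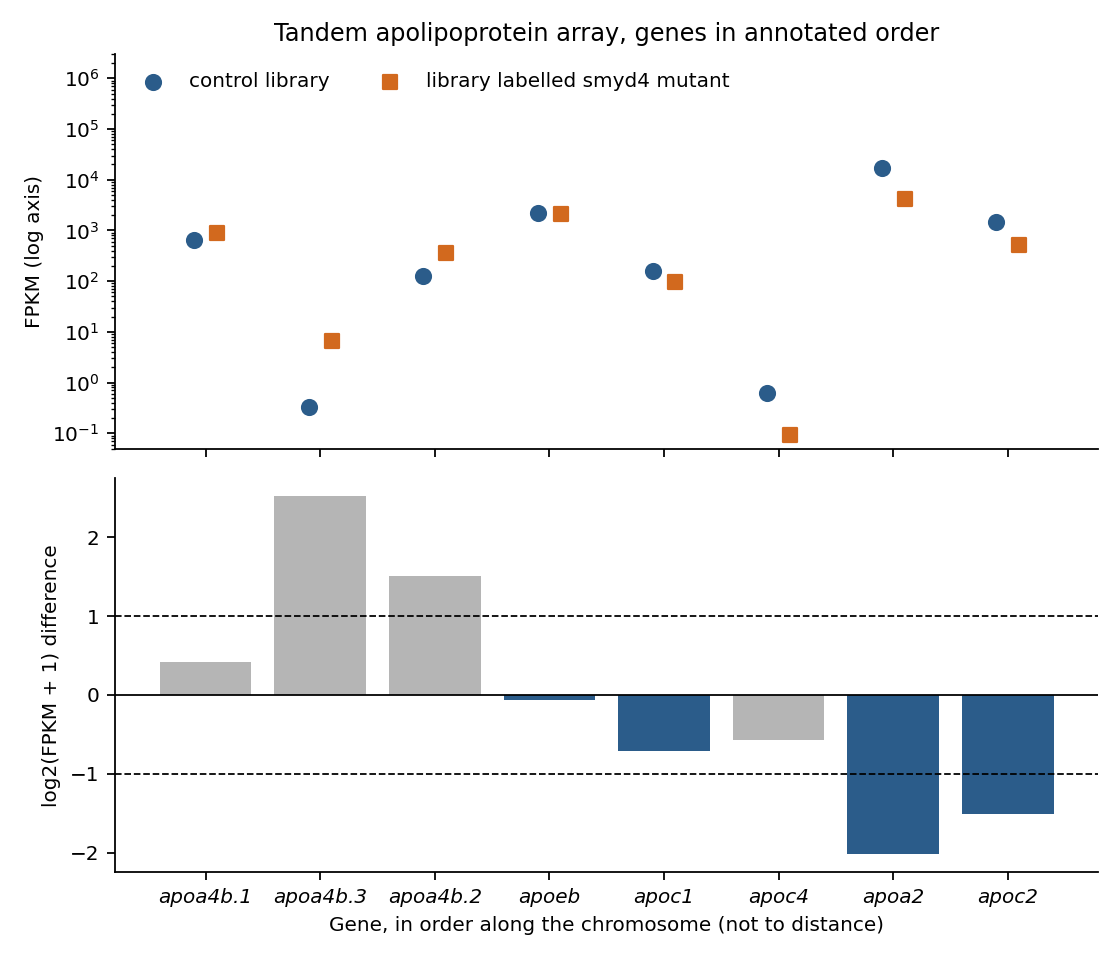
The 8 apolipoprotein genes of the tandem array in annotated order (not to distance), with FPKM in each library on a log axis above and the difference of log2(FPKM + 1), *smyd4*-labelled minus control, below, where blue bars are genes described here and gray bars are other apolipoproteins. The differences run from 2.53 for *apoa4b.3*, which rests on 6 and 115 reads, to -2.02 for *apoa2*.

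The other 6 genes lie apart from this array, and *apoea* stands next to *apoa4a*. The gene *apoa4a* was at 82.7 FPKM in the control library and at 14.6 FPKM in the *smyd4*-labelled library, a difference of -2.42, and so was lower where *apoa4b.2* of the main array was higher. Genes beside the described ones that are no apolipoproteins showed no common direction. Of 11 such genes 3 were higher, 1 was lower and 7 lay within 1. Over all tested genes 33.3% were higher and 11.6% were lower. The 7 include a gene next to *apoea* that was below 1 FPKM in both libraries and so was not tested. The lower gene, *spink4* next to *mttp*, rests on 13 reads in the control library and 2 reads in the *smyd4*-labelled library. Next to *apoa1a*, *pafah1b2* was at 3.97 and 4.999 FPKM and *rnf214* at 7.50 and 8.51 FPKM. Next to *apobb.1*, *hpcal1* was higher at 1.92 and 7.27 FPKM, and next to *apoba* the lipid droplet gene *ldah* was higher at 3.21 and 13.3 FPKM.

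The remaining apolipoproteins went in both directions. Of 15 tested, 5 were lower and 4 were higher (5 and 2 after TMM scaling), with a median difference of 0.19. Of all tested genes 11.6% were lower and 33.3% were higher (19.3% and 21.2% after TMM scaling), with a median of 0.49. The summed level of these apolipoproteins was 1163 FPKM in the control and 1414 FPKM in the *smyd4*-labelled library. Lower genes included *apobb.2*, another B apolipoprotein gene by name, at 33.9 and 2.77 FPKM (difference -3.21), so that the 3 B apolipoprotein genes named here were all lower. The gene *apom*, an HDL-bound carrier of sphingosine-1-phosphate in mammals, was at 117.5 and 30.7 FPKM (-1.90), and the lipocalin *apoda.1* was at 35.5 and 4.05 FPKM (-2.85). The lipocalin symbol *apod* is shared, and its copy ENSDARG00000057437 was at 28.2 and 39.6 FPKM, a difference of 0.48 that changed sign to -0.03 after TMM scaling. The other copy, ENSDARG00000060350, was lower at 9.53 and 0.241 FPKM (-3.08), and it is named outside the rule for named genes, after its values were seen. The mitochondrial proteins named *apoo* (ENSDARG00000104696, 40.5 and 32.4 FPKM) and *apool* (18.4 and 13.7 FPKM) lay within 1. The other identifier with the symbol APOO (ENSDARG00000026444) was higher at 1.47 and 7.32 FPKM (1.75), and it too is named after its values were seen. Clusterin, *clu*, was at 4.67 and 10.6 FPKM, a difference of 1.03 that TMM scaling reduced to 0.58.

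Genes that build and secrete the particles did not share one direction. Of 23 tested in a list of assembly and secretion, 6 were higher and 6 were lower, with a median of 0.45 (4 higher and 7 lower after TMM scaling). Over all tested genes 33.3% were higher and 11.6% were lower (21.2% and 19.3% after TMM scaling), with a median of 0.49. These shares are the background for every list here. The cargo receptor gene *surf4* (ENSDARG00000104647), which helps lipoproteins leave the endoplasmic reticulum in mammals, was lower at 160.5 and 49.2 FPKM (-1.69). A second identifier with the capital symbol SURF4 (ENSDARG00000035131) was higher at 9.69 and 36.4 FPKM (1.81). The triglyceride synthesis gene *dgat1* (ENSDARG00000054914) was at 3.07 and 16.8 FPKM (2.13), and the phospholipid-remodeling gene *lpcat3* was at 4.82 and 23.7 FPKM (2.09). The other identifier with the symbol DGAT1 (ENSDARG00000103503) went the other way within 1, at 1.77 and 0.531 FPKM (-0.86). Among the genes lower in this list was *dgat2*, the other triglyceride synthase, at 17.6 and 5.12 FPKM (-1.60), a gene singled out after its values were seen.

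Receptors, lipases and lipid transfer genes were likewise split, with 7 of 27 tested higher and 7 lower. Their median of 0.48 was close to the 0.49 of all tested genes. Lipoprotein lipase, *lpl* (ENSDARG00000087697), the enzyme that *apoc2* activates, was higher at 5.89 and 43.3 FPKM (2.68). Endothelial lipase, *lipg*, was higher at 2.89 and 19.6 FPKM (2.41), and the sorting receptor *sort1* (ENSDARG00000056252) at 5.70 and 32.0 FPKM (2.30). The HDL receptor *scarb1* was at 3.89 and 8.28 FPKM and the LDL receptor *ldlra* at 0.861 and 1.60 FPKM, both within 1. The lysosomal cholesterol carrier *npc2* (ENSDARG00000096979) was lower at 21.8 and 3.13 FPKM (-2.47). The more abundant copy with this symbol (ENSDARG00000090912) was just past the threshold at 404.9 and 200.3 FPKM (-1.01). Named after its values were seen, *abca1b*, a copy of the transporter that loads cholesterol onto the *apoa1* proteins, was lower at 89.8 and 21.1 FPKM (-2.04).

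Of the liver and yolk syncytial layer transcription factors 5 of 27 tested were lower and 2 were higher, with a median of -0.21 (10 lower and 1 higher after TMM scaling). The gene *hnf4a*, whose product activates many apolipoprotein genes in mammals, was lower at 10.2 and 2.59 FPKM (-1.64). The listed factors *cebpb* (145.4 and 56.2 FPKM, -1.35) and *cebpd* (192.8 and 82.7 FPKM, -1.21) were lower too, while 20 of the 27 tested lay within 1. The endoderm factor *foxa2* went the other way, at 5.84 and 54.7 FPKM (3.02). Genes of fatty acid and retinoid binding proteins were lower in 7 of 15 tested and higher in 2, with a median of -0.83. The list mixes carriers inside cells with the secreted plasma carriers *rbp4* and *ttr*, and 3 of its genes (*fabp10a*, *rbp4* and *ttr*) are also hepatocyte markers. The liver form *fabp10a* was at 179.4 and 4.86 FPKM (-4.94), *rbp2* (ENSDARG00000093774) at 134.3 and 25.3 FPKM (-2.36), *fabp7* (ENSDARG00000007697) at 686.9 and 155.0 FPKM (-2.14), and *rbp5* was higher at 7.01 and 27.9 FPKM (1.85).

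Markers of the liver were lower as well. Of 27 tested identifiers of hepatocyte markers, none of them an apolipoprotein, 16 were lower and 1 was higher. Their median difference was -1.57, and after TMM scaling 19 were lower and 0 were higher. Over the 30 listed genes the summed level was 8719 FPKM in the control library and 2194 FPKM in the *smyd4*-labelled library. The most abundant were *fetub* at 3167 and 250.4 FPKM, the retinol carrier *rbp4* at 1777 and 584.3 FPKM, and the iron carrier *tfa* at 1163 and 572.9 FPKM. No hepatocyte marker was listed at 0 in both libraries. The gene *hp* was at 0 in the control and 0.0547 FPKM (1 read) in the *smyd4*-labelled library. The gene *ahsg1* was at 0.138 FPKM (4 reads) in the control and 0 in the *smyd4*-labelled library. Both were below 1 FPKM in both libraries and so were not tested. Exocrine pancreas markers were lower in 8 of 10 tested, with summed levels of 137.9 and 8.98 FPKM over 13 genes, and *prss1* was at 60.4 and 1.06 FPKM. Most of these genes entered the comparison through the control library alone, and with at least 1 FPKM required in both libraries only *prss1* counted as lower (14 hepatocyte markers did). Enterocyte markers were lower in 3 and higher in 1 of 8 tested, with summed levels of 324.3 and 124.5 FPKM over 14 genes. The lower genes include both *rbp2* copies. These and *fabp2*, which make up most of the summed level, are also counted among the fatty acid and retinoid binding proteins. The part of liver, gut or pancreas tissue in the levels of the apolipoproteins was not tested.

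The listed yolk genes gave little information on yolk tissue. Vitellogenin message is made in the maternal liver and the *mxtx* genes act early in the yolk syncytial layer, so low RNA at this age does not show whether such tissue was present. Of 10 yolk and yolk syncytial layer genes, *vtg2*, *vtg4*, *vtg5*, *vtg6* and *mxtx1* were listed at 0 in both libraries, *vtg1* was at 0 and 0.264 FPKM, and *vtg7* was at 0.262 and 0 FPKM. The remaining *vtg3* (0.0185 and 0.0194 FPKM) and *mxtx2* (0 and 0.210 FPKM) were as low. The iron exporter *slc40a1*, which other cells also express, was the only one tested, at 44.9 and 57.3 FPKM, and it made up nearly the whole sum of 45.2 and 57.8 FPKM. Cardiomyocyte markers were higher in 7 and lower in 2 of 19 tested (6 and 3 after TMM scaling), shares close to the 33.3% and 11.6% of all tested genes. Among them *myl7* was at 642.0 and 2977 FPKM, *cmlc1* at 1296 and 1377 FPKM and *actc1a* at 4275 and 1685 FPKM. Neural markers were lower in 7 and higher in 1 of 13 tested (8 and 0 after TMM scaling), with summed levels of 1499 and 815.4 FPKM over 14 genes. Epidermal markers were higher in 4 and lower in 1 of 12 (2 and 1 after TMM scaling), and erythrocyte markers were higher in 6 of 11 and lower in none (3 and 2 after TMM scaling), although their summed level went from 3136 to 2531 FPKM. Skeletal muscle markers were higher in 5 and lower in 3 of 15 (2 and 5 after TMM scaling). For epidermal and skeletal muscle markers the share higher as deposited was close to the 33.3% of all tested genes.

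**Figure D5:**
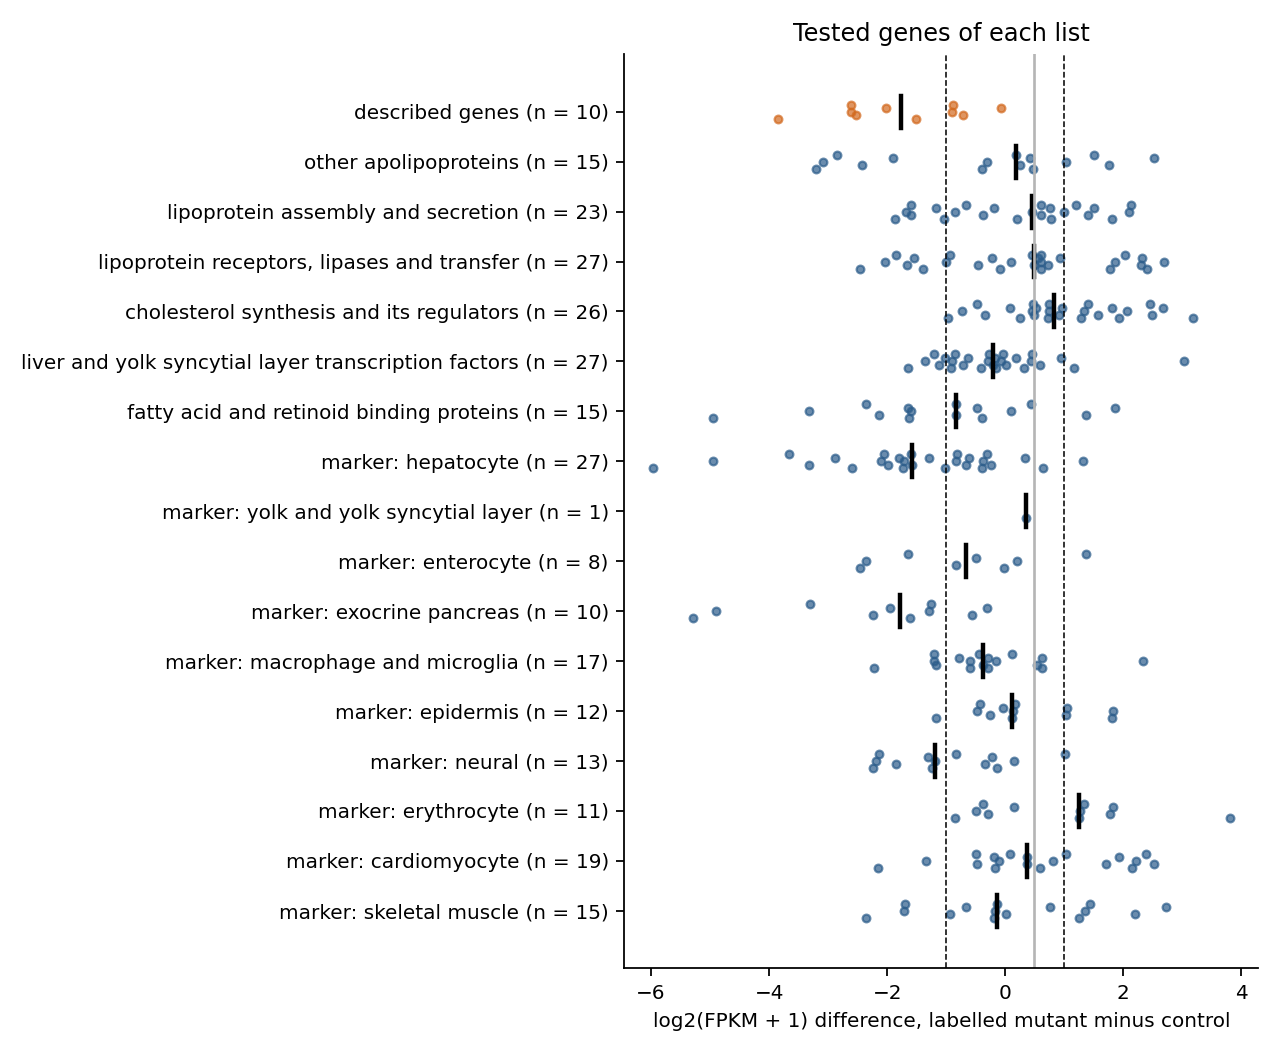
Difference of log2(FPKM + 1), *smyd4*-labelled minus control, of each tested gene of the 10 described genes, the 6 pathway lists and the 10 marker lists, with 1 point per gene, black bars at each median, a gray line at the median of all genes and dashed lines at the threshold. The described genes (median -1.77), the hepatocyte markers (-1.57) and the exocrine pancreas markers (-1.78) have the lowest medians, and the single tested yolk marker lies at 0.35. Most exocrine pancreas markers were tested through the control library alone, which by itself favors a low median.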

How the data were processed

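RNA-seq of 2 libraries was used, and samples were grouped by the genotype in the sample records. The authors deposited 1 FPKM value per gene and library, a unit inferred here from the values. Per the submitters' processing notes they used Bowtie2 2.0.6 and TopHat2 2.0.9, and per the methods the reads were aligned to the unmasked zebrafish genome. The build, gene annotation and counting rule are not given in the sources used here, so reads of near-identical copies may have been split between them. Gene symbols matched 26433 of 33396 identifiers. Of the 10 genes, 8 were matched by identifier or lower-case name and 2 (*apoba* and *mttp*) by capital symbol. In the lists, a name without a lower-case match took every identifier with its capital symbol, with the paralog suffix dropped where needed. List counts are therefore counts of identifiers, and copies of a gene count separately. The 28 hepatocyte names, 2 of them not found, gave 30 identifiers, and the symbol F7 gave 3 of these.

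A gene was tested at 1 FPKM or more in either library. Differences were taken after adding a pseudocount of 1, which understates the change of low genes, and the threshold was 1. Because FPKM ratios are ratios of whole reads, library totals and the smallest whole reads of each gene were derived from the values, which recovered 91.5% and 90.9% of the totals. True reads can be a multiple of these. The intervals of folds are then too wide, and the shares of a library are too low. Intervals are exact Clopper-Pearson at 95%. The procedure was run on simulated data in which the shortest recovered gene lengths were raised, so read recovery for such genes was not covered. Alternatives were 3 scalings, 2 filters, a pseudocount of 0.1 and a threshold of 2.

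The genes and the 16 lists were chosen with earlier results of these data known. Beyond the 10 genes, the names were taken from *smyd4* and *myl7*, every tested further apolipoprotein with at least 10 FPKM in the higher library, the 4 genes of each other pathway list with the largest absolute difference at that level, *hnf4a*, *scarb1*, *ldlra*, *lpl* and *srebf2*, the 3 most abundant genes of a marker list, hepatocyte markers at 0 in both libraries, and genes beside a described gene. Markers at 0 in 1 library, all yolk list genes, *dgat2*, *abca1b*, *apol1*, *apof* and the second copies of *apod*, *apoo*, *dgat1* and *npc2* were named after their values were seen. Tables and figures were made in Python 3.11.15 (scipy 1.17.1, pandas 2.3.3, numpy 2.4.6, matplotlib 3.10.9).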

Additional observations from a re-analysis of the deposited data

How the results depend on the processing

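All 10 apolipoprotein and transfer genes stayed below 0 under 6 alternatives, which were 3 scalings (upper-quartile, TMM, median-of-ratios), no filter, at least 1 FPKM in both libraries, and a pseudocount of 0.1. Of 60 gene values under alternatives 51 kept their side of the threshold, 9 newly passed it and 0 reversed. No reversal was possible, since a pseudocount keeps the sign and every scaling lowered the *smyd4*-labelled library against the control. The factors were 1.43 for TMM, 1.44 for median-of-ratios and 1.64 for upper-quartile. The 2 filters left the values unchanged, because all 10 genes exceeded 1 FPKM in both libraries. The lack of reversals is therefore no measure of robustness. The number lower was 6 with the values as deposited, 9 under each scaling and 5 at a threshold of 2. The median of the 10 genes was -2.28 with TMM, -2.29 with median-of-ratios and -2.48 with upper-quartile, against -1.77. The log2 ratio of their summed level was -2.60, -2.60 and -2.79 in the same order, against -2.08. Each scaling applies the same factor to the FPKM of all genes, but with the pseudocount the differences of low genes move less. With TMM *apoa1a* went from -2.61 to -3.13 and *smyd4* from 0.002 to -0.36. The scalings took the median of all genes from 0.49 to 0.04, 0.04 and -0.13. Among the other tested apolipoproteins 4 reversed under all 3 scalings, *apoa4b.1* (-0.10, -0.10 and -0.29, against 0.42), *apod* ENSDARG00000057437 (-0.026, -0.030 and -0.21, against 0.48), *apol1* (-0.24, -0.25 and -0.40, against 0.19) and *apof* (-0.011, -0.013 and -0.11, against 0.25). Lower genes among all tested were 2060 as deposited, 3443 with TMM and 411 at a threshold of 2. The shares lower at 10 and 100 FPKM and the counts relative to the median of all genes were added after the data were seen. No paired analysis was possible because each group has 1 library. With 1 library a group, no alternative measures the spread between pools of hearts, and low genes such as *mttp* and *apoea* rest on few reads (379 and 232 in the *smyd4*-labelled library).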

Other observations

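Genes of cholesterol synthesis, the pathway that supplies one of the lipids these particles carry, were higher in 11 of 26 tested and lower in 0, with a median difference of 0.83 (9 higher and 2 lower after TMM scaling). Over all tested genes the shares were 33.3% higher and 11.6% lower and the median was 0.49. The isomerase gene *idi1* was at 9.21 FPKM in the control library and at 91.6 FPKM in the *smyd4*-labelled library (difference of log2(FPKM + 1) 3.18). The thiolase gene *acat2* was at 7.12 and 51.0 FPKM (2.68), the decarboxylase gene *mvd* at 1.75 and 14.4 FPKM (2.49) and the sterol oxidase gene *msmo1* at 2.06 and 15.7 FPKM (2.45). The gene of their transcriptional activator, *srebf2*, was at 12.2 and 5.73 FPKM, a difference of -0.97 that lay within the threshold as deposited and passed it as lower under every scaling tried (-1.43 with TMM, -1.60 with upper-quartile, -1.44 with median-of-ratios). In the same libraries the 10 apolipoprotein and transfer genes had a median of -1.77. No relation between the groups was tested.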
